A study of Rattus norvegicus with 24 samples.

Results

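The voltage-gated sodium and calcium channel genes of thoracic propriospinal (TPS) neurons were described in uninjured rats and after spinal transection. TPS neurons have their cell bodies in the thoracic cord and send axons down to the lumbosacral enlargement, where they help to couple forelimb and hindlimb movement. The genes were chosen by name: those whose symbol begins with Scn and a digit, or with Cacna, Cacnb or Cacng, on a probe of the array that names 1 gene. This gave 35 genes of the 14324 genes named in that way, with 36 of the 27342 probes, since Scn3a had 2 such probes and the one with the higher mean was used. All 35 matched a RefSeq rat gene by identifier and by symbol.

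The rats were female Long-Evans animals of 77 ± 10 days. All 24 had Fluoro-Gold, a retrograde tracer, injected into the lumbosacral enlargement, and labelled neurons of the mid-thoracic cord were cut out by laser and pooled for each animal, with 1 Affymetrix Rat Gene 1.0 ST array per rat. Transected rats had the cord severed completely at T9, which cuts the labelled axons, 1 week after labelling, and were sampled 3 days (n = 4), 1 week (n = 4), 2 weeks (n = 2) or 1 month (n = 2) post injury (p.i.). Controls were labelled but not transected, and are named here after their labels as 4-day, 2-week and 1-month controls (n = 4 each). By the study's methods they were taken 10 days, 3 weeks and 5 weeks after labelling. Rats at 3 days and 1 week p.i. were compared with the 4-day controls, those at 2 weeks with the 2-week controls, and those at 1 month with the 1-month controls. The rats at 1 week p.i. were taken 2 weeks after labelling and their controls 10 days after it. Time since labelling was thus not matched in that comparison. Neurons that survived to be collected at the late times need not be the same population as at the start, and the transected groups of 2 rats give the least precise values. Values are log2 of the RMA intensity that the authors deposited, and a difference is transected minus control on that scale.

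Median intensities of the arrays ran from 73.6 to 81.3, and any 2 arrays of a group correlated at r = 0.968 to 0.992. The 12 neuronal marker genes had a median of 11.03 on the log2 scale in the controls, and none lay under the filter on low values. Markers of glia were measured too, with list medians of 9.75 for astrocytes, 10.36 for oligodendrocytes and 7.60 for microglia. The paper reports that Gfap, Mag, Mog and Mbp were not expressed and regards its samples as fairly pure, without fully excluding microglia. Whether the cut and pooled samples held RNA of neighbouring cells was not tested. In such bulk samples, fewer cells of a type and less RNA per cell cannot be told apart. Rats 3 and 4 of the 4-day controls took array weights of 0.328 and 0.477, where the other 22 arrays took 0.616 or more.

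Voltage-gated sodium channels carry the upstroke of the action potential. Each is a large pore-forming α subunit that opens on depolarization, with smaller β subunits that tune its gating and anchor it in the membrane. Voltage-gated calcium channels have the same kind of pore in their α1 subunit, helped by a cytoplasmic β subunit that brings the channel to the surface and an extracellular α2δ subunit that raises its density at terminals. They trigger transmitter release and carry calcium into the soma and dendrites. The γ genes bear the calcium channel name, but most of those found in brain and cord encode TARPs, proteins that traffic AMPA-type glutamate receptors and set their kinetics. Cutting an axon is known to shift the sodium channels that peripheral sensory neurons make, above all towards Nav1.3, and to raise α2δ-1 in them.

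All 8 families were represented in uninjured TPS neurons. Of the 35 genes, 33 had a mean above the filter, which was set at the lowest 15% of probes by mean over all arrays (5.05 on the log2 scale, an intensity of 33.2). A probe's brightness depends on its sequences as well as on its RNA, so levels are given gene by gene and do not rank the channels against each other.

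Among sodium channel α subunits, the 3 that carry most sodium current in the adult central nervous system were all clearly measured. Scn1a (Nav1.1), known from fast-spiking interneurons and motor neurons, had a mean level of 9.73 ± 0.20 on the log2 scale over the controls (SD, n = 12) and ran from 9.36 to 10.02. Scn8a (Nav1.6), the main channel of the mature axon initial segment and node of Ranvier, had a level of 8.31 ± 0.15. Scn2a (Nav1.2), an early and unmyelinated-axon channel, stood at 7.52 ± 0.15, and Scn3a (Nav1.3), which is abundant before birth, at 6.62 ± 0.23. Scn7a, which encodes the sodium-sensing channel Nax, had a level of 5.85 ± 0.20. Scn4a, the skeletal muscle channel, had 5.55 ± 0.15.

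The 2 genes under the filter were Scn10a and Scn11a, which encode Nav1.8 and Nav1.9, channels of peripheral pain-sensing neurons. Scn10a had a level of 4.90 ± 0.09 in the controls and never left 4.77 to 5.08 over all 24 arrays. Scn11a had 4.89 ± 0.12 and ran from 4.63 to 5.09. Neither was tested, and their values did not part the transected from the control rats. The members just above the filter were Cacng6 (5.26 ± 0.19), Cacng5 (5.51 ± 0.33) and Scn4a, and the lowest control values of Cacng6 and Cacng5, at 5.04 and 4.91, fell under it. The deposited values carry no background signal, so a low level cannot be called absent. For 6 dim members (Scn4a, Scn10a, Cacna1f, Cacna1h, Cacng1 and Cacng5) the same value to every digit stood on 3 or more arrays, up to 6 arrays for Cacna1h. Lowering the filter to the lowest 10% of probes would have let both sodium channel genes in.

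The sodium channel β genes were each above the filter. Scn4b, whose product takes part in resurgent sodium current, had a level of 8.85 ± 0.17 in the controls. Scn3b stood at 7.16 ± 0.16 and Scn2b, whose product is linked to the α subunit by a disulphide bond, at 6.82 ± 0.16.

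Pore-forming calcium channel genes of all 3 classes were measured within a narrow band, from 5.76 to 7.35. In the presynaptic Cav2 class, Cacna1a (P/Q-type) had a level of 7.35 ± 0.18, Cacna1e (R-type) 7.21 ± 0.14 and Cacna1b (N-type) 6.66 ± 0.07. In the low-threshold T-type class, Cacna1i had 6.83 ± 0.19, Cacna1h 6.17 ± 0.12 and Cacna1g 6.08 ± 0.09. In the L-type class, Cacna1c had 6.32 ± 0.08, Cacna1d 6.13 ± 0.13 and the retinal gene Cacna1f 5.76 ± 0.15.

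The auxiliary subunits covered a wide range of levels. Cacng7 and Cacng2 (stargazin), both TARPs, had levels of 10.55 ± 0.19 and 10.30 ± 0.25, and Cacnb4, a calcium channel β gene of the brain, had 9.28 ± 0.15. The other β genes were Cacnb1 (7.90 ± 0.11), Cacnb2 (7.56 ± 0.18) and Cacnb3 (6.71 ± 0.27). The α2δ genes were Cacna2d3 (8.45 ± 0.14), Cacna2d2 (7.95 ± 0.17) and Cacna2d1 (7.74 ± 0.16), the latter pair encoding the binding sites of gabapentin. Among the remaining γ genes, the TARPs Cacng3, Cacng8 and Cacng4 had levels of 8.16 ± 0.40, 7.04 ± 0.17 and 6.18 ± 0.20, and Cacng1, a skeletal muscle subunit, had 5.68 ± 0.19. Cacng3 had the widest spread of the 35 genes between control rats, from 7.65 to 9.01.

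**Figure D1:**
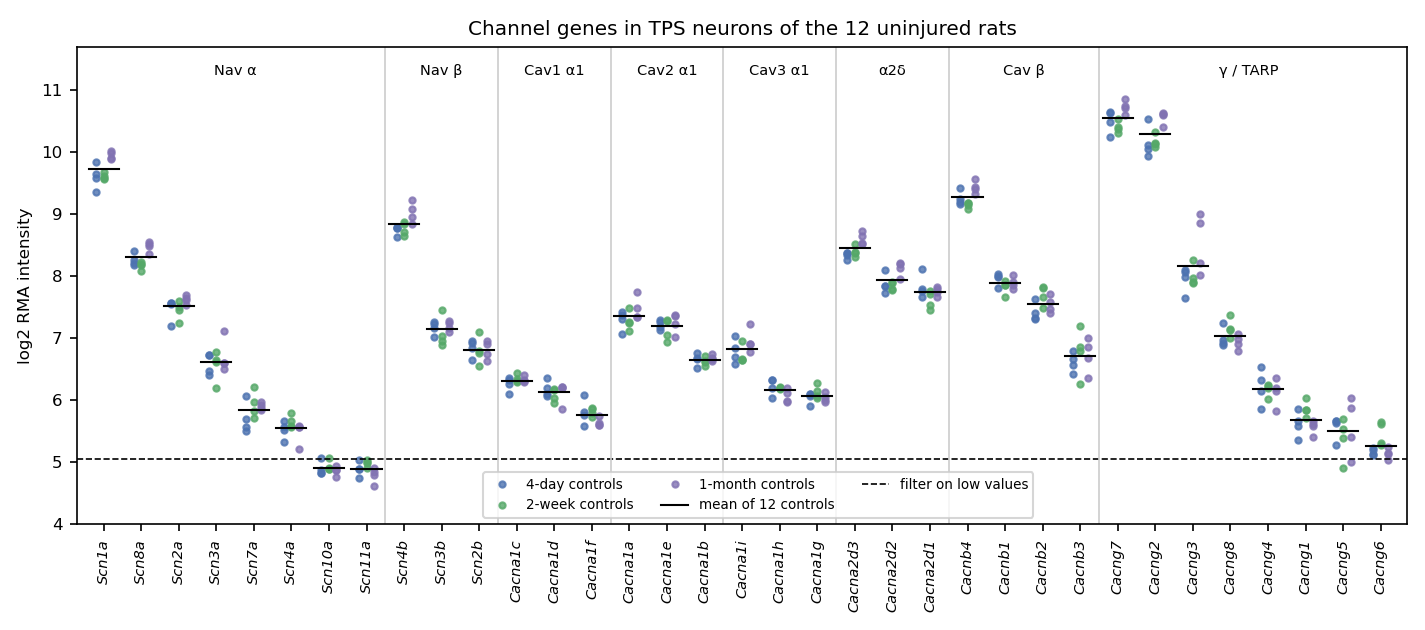
Levels of the 35 channel genes (x axis, by family) in the 12 uninjured rats, as log2 RMA intensity (y axis). Points are single rats, coloured by control group, black lines are means of the 12 controls, and the dashed line is the filter at 5.05; Scn10a and Scn11a are the genes whose means lie under it.

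The first question was whether cutting the axon changed these genes within 3 days. No member passed the threshold of an adjusted p under 0.05 in limma, where 671 of the 23240 probes tested did (2.89%), 465 higher and 206 lower. At an unadjusted p under 0.05, 5 of the 33 members tested were lower and 0 higher (15.2%), beside 14.2% of all probes. The methods' t-test gave 0 members after adjustment and 2 before it, beside 0 and 2001 of the 23240 probes. Over all 35 members, 21 had a difference below 0 and the median difference was -0.03, where the tested probes had a median of -0.01. The 95% interval of the difference lay within 2-fold in both directions for all 33 tested members and within 1.5-fold for 29, beside 96.6% and 82.7% of probes.

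The 4 members with the smallest p at 3 days were auxiliary subunits, all on the lower side. Cacnb1, a calcium channel β gene that also serves in muscle, measured 7.56, 7.69, 7.91 and 7.49 at 3 days p.i. and 8.03, 8.01, 7.99 and 7.82 in the 4-day controls. The third transected rat lay inside the control range and the rest below it. The difference was -0.30 ± 0.10 (SE; adjusted p = 0.0991, limma), a fold of 0.810.

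Scn2b measured 6.44, 6.29, 6.71 and 6.37 at 3 days and 6.93, 6.84, 6.65 and 6.96 in the controls. Again the third transected rat overlapped the controls. Its difference was -0.39 ± 0.13 (adjusted p = 0.125, limma).

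Cacnb4 split the transected group. It measured 8.77, 8.76, 9.40 and 8.72 at 3 days against 9.21, 9.17, 9.25 and 9.42 in the controls. Transected rats 1, 2 and 4 were below every control, and rat 3 stood with the brightest control. The difference over all 4 was -0.35 ± 0.12 (adjusted p = 0.142, limma).

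Cacng2, the stargazin gene, was the single member whose groups did not overlap at 3 days. Its transected rats measured 9.91, 9.94, 9.83 and 9.69 and its controls 9.95, 10.06, 10.12 and 10.53. The gap between the groups was small, and the difference was -0.32 ± 0.12 (adjusted p = 0.156, limma). Groups apart were found for 1 of 33 members (3.03%), on the lower side, and for 5.51% of all probes.

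Scn8a completed the 5 members at an unadjusted p under 0.05. It measured 8.104, 7.998, 8.242 and 7.9997 at 3 days and 8.41, 8.19, 8.22 and 8.26 in the controls. Its difference was -0.18 ± 0.07 (adjusted p = 0.226, limma). On the higher side, the smallest p belonged to Cacna1b (0.13 ± 0.08), Scn3a (0.22 ± 0.16) and Cacng4 (0.16), each with an interval that included 0. Cacna2d1 had a difference of 0.00 ± 0.17 with the widest scatter of the named genes, its transected rats measuring 7.83, 8.04, 8.39 and 7.11.

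The result at 3 days turned on 1 rat. Without transected rat 3, Cacnb4 (-0.51 ± 0.09, adjusted p = 0.00198), Cacnb1 (-0.39 ± 0.09, adjusted p = 0.0209) and Scn2b (-0.48 ± 0.14, adjusted p = 0.0486) passed limma's test as lower, while 4.54% of all probes passed. That rat also had the lowest list mean of microglial markers in its group, 8.66 where the other rats had 9.09 to 9.20. It was lowest too for oligodendrocyte (9.94, others 10.17 to 10.38), astrocyte (9.25, others 9.44 to 9.52) and vascular markers (8.06, others 8.22 to 8.50). For oligodendrocyte precursor, skeletal muscle and sensory neuron markers it was not the lowest. Its neuronal markers, at 10.98, lay within the range of the others. With all 12 controls pooled, 3 of the 33 members passed as lower, beside 9.11% of probes. They were Cacng2, Cacnb4 and Scn2b, with differences of -0.46, -0.37 and -0.37. The Cacng2 controls were not alike: their mean was 10.56 in the 1-month group and 10.17 in the 4-day and 2-week groups. With 4-day controls 1 and 2 alone, no member passed, beside 1.23% of probes.

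Other transcripts moved at the same time. Of 12 microglial markers, 10 were called higher at 3 days and 0 lower, and the list mean ran from 8.66 to 9.20 in the transected rats and from 7.03 to 8.28 in the controls. The 7.03 was 4-day control 3, where the other controls had 7.95 to 8.28. That rat was also lowest of its group for astrocyte (8.99, others 9.83 to 9.95), oligodendrocyte (9.84, others 10.04 to 10.23) and vascular markers (8.09, others 8.30 to 8.48). For skeletal muscle and sensory neuron markers it was the highest. Of 12 neuronal markers, 1 was called higher and 1 lower, with list means of 10.76 to 10.99 and 10.89 to 11.03. Of 8 astrocyte markers, 2 were called lower. In the other lists 1 of 9 oligodendrocyte and 1 of 6 sensory neuron markers were called higher and 1 of 7 skeletal muscle markers lower. No oligodendrocyte precursor or vascular marker was called. The share called over all probes was 2.89%. List means of the sensory neuron markers were 6.22 to 6.35 in the transected rats and 5.89 to 6.12 in the controls. Of these lists only that of sensory neurons held a marker under the filter, 1 of its 6. The part of these markers in the channel values was not tested.

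The brighter members were mostly lower at 3 days. Among the 18 members with a mean of 6.78 or more over all arrays, 13 had a difference below 0 and the median was -0.14, while 56.1% of all tested probes in that range were below 0 with a median of -0.02. Of the 17 dimmer members 8 were below 0, with a median of 0.03, beside 49.4% of probes in their range. At 1 week, 2 weeks and 1 month 8, 10 and 8 of the 18 brighter members were below 0. The shares of probes in that range were 54.8%, 41.9% and 51.7%. A link between level and direction was not tested. By family, the 3 sodium channel β genes were all below 0 (-0.39 to -0.11), as were 3 of 4 calcium channel β genes, whereas the 9 pore-forming calcium channel genes ran from -0.18 to 0.13. None of these family counts was tested as a group.

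**Figure D2:**
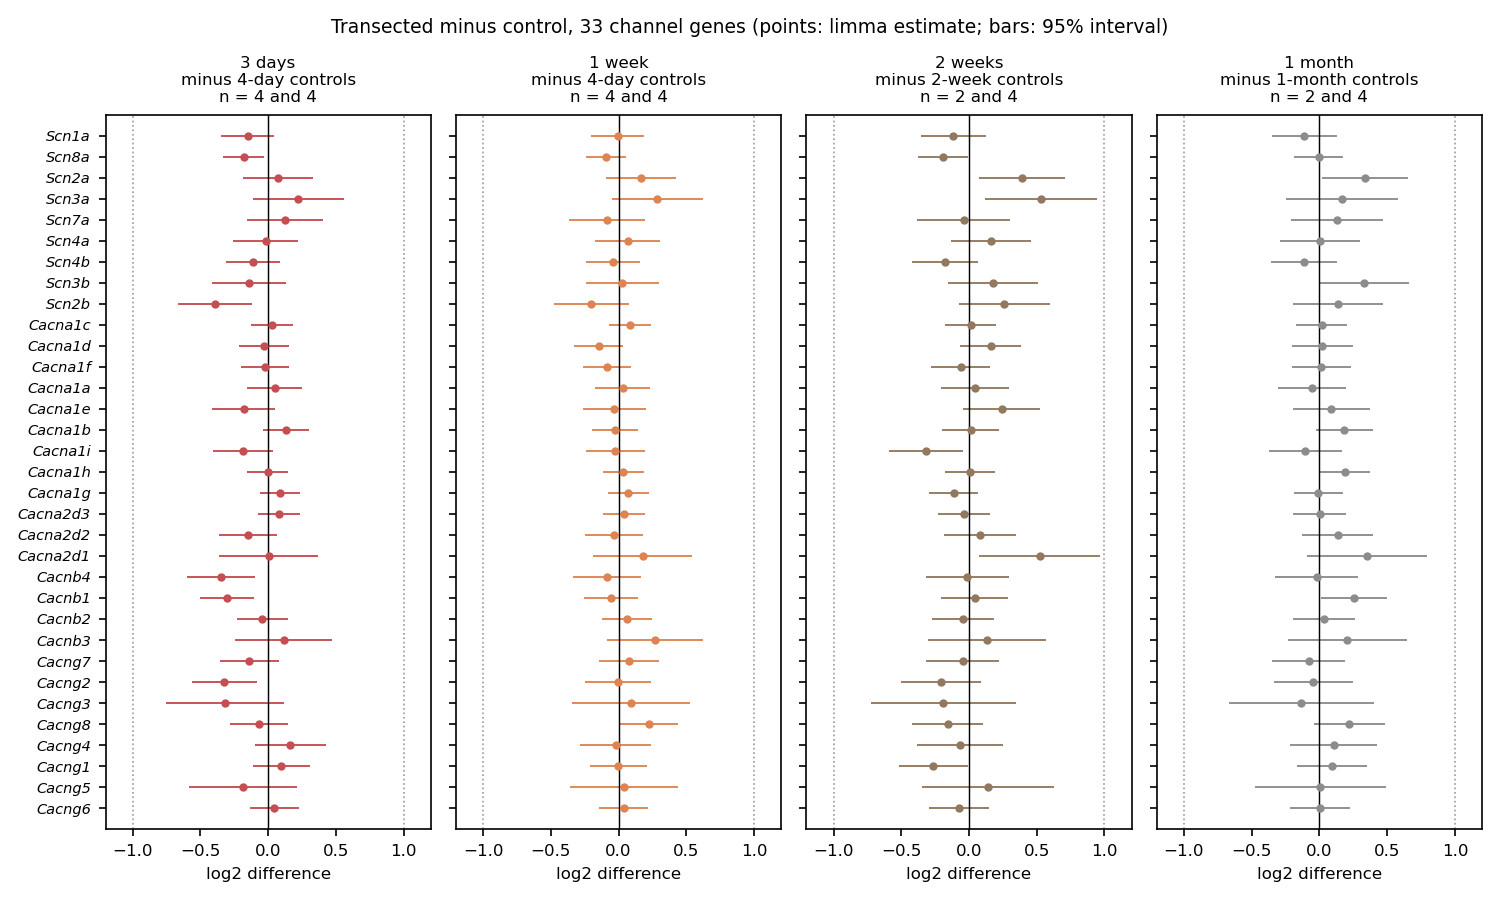
Difference of each of the 33 tested channel genes from the controls of that comparison at 4 times p.i. (x axes, log2 difference, and rows, genes by family). Points are limma estimates and bars 95% intervals, solid lines mark 0 and dotted lines 2-fold; every bar stays between the dotted lines at all 4 times, and bars are wider where 2 transected rats were compared with 4 controls.

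At 1 week p.i. the channel genes lay close to the same controls. No member and no probe passed the adjusted threshold in limma (0% of 23240). At an unadjusted p under 0.05 there was 1 member, on the higher side (3.03%), beside 4.44% of probes. With the methods' t-test 0 members passed before and after adjustment, beside 647 and 0 of the 23240 probes. Cacng8, a TARP of forebrain AMPA receptors, measured 7.09, 7.34, 7.09 and 7.44 against 7.25, 6.97, 6.90 and 6.93 in the controls, so that control rat 1 overlapped. Its difference was 0.23 ± 0.10 (adjusted p = 0.999, limma).

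Scn3a followed, with 7.01, 6.44, 7.08 and 6.99 at 1 week against 6.41, 6.48, 6.74 and 6.73. Transected rats 1, 4 and 5 were above every control and rat 2 was near the lowest, for a difference of 0.29 ± 0.16. Cacnb3 had a difference of 0.27 ± 0.17. Scn2a was the single member with groups apart at 1 week, higher in the transected rats (7.59 to 7.70) than in the controls (7.19 to 7.58), by 0.17 ± 0.12. That made 3.03% of members with groups apart, beside 1.76% of probes. On the lower side, the smallest p belonged to Cacna1d (-0.15 ± 0.09), Scn2b (-0.20 ± 0.13) and Scn8a (-0.09 ± 0.07). The median difference of the 35 genes was 0.03, the intervals of all 33 tested members lay within 2-fold, and those of 31 within 1.5-fold.

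At 2 weeks p.i., with 2 transected rats, no member and no probe passed after adjustment (0%). Unadjusted in limma, 6 members had a p under 0.05, 3 higher and 3 lower (18.2%), beside 5.29% of probes. By the methods' t-test 4 members passed before adjustment and 0 after it, beside 1553 and 0 of the 23240 probes. In limma, the 3 on the higher side were Scn3a, Scn2a and Cacna2d1. Scn3a measured 7.12 and 7.06 in the transected rats and 6.78, 6.20, 6.66 and 6.62 in the 2-week controls. Both transected values lay above every control, and the difference was 0.53 ± 0.20 (adjusted p = 0.801, limma), a fold of 1.44.

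Scn2a measured 7.80 and 7.88 against 7.45, 7.25, 7.50 and 7.61. Both rats were again above the controls, by 0.39 ± 0.15 on average (adjusted p = 0.809, limma). Cacna2d1, the α2δ-1 gene, measured 8.24 and 8.05 against 7.54, 7.47, 7.72 and 7.77, a difference of 0.52 ± 0.21 (adjusted p = 0.836, limma).

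The 3 on the lower side were Cacna1i, Scn8a and Cacng1. The T-type gene Cacna1i measured 6.23 and 6.60 against 6.65, 6.95, 6.67 and 6.65, so that transected rat 4 was just under the controls. Its difference was -0.32 ± 0.13. Scn8a measured 7.94 and 8.03 against 8.23, 8.18, 8.10 and 8.21, a difference of -0.19 ± 0.09, and Cacng1 differed by -0.26 ± 0.12. All 6 had groups apart. With 2 rats against 4, groups often do not overlap: this held for 9 members, 4 higher and 5 lower (27.3%), and for 17.7% of all probes. The median difference of the 35 genes was -0.02, and the intervals of 26 of the 33 tested members lay within 1.5-fold. Microglial markers stood at list means of 7.82 and 8.23 in these rats and 7.17 to 7.51 in their controls, and their part in the channel values was not tested.

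One month p.i. gave no call in limma either, over members or probes (0%). Before adjustment, 3 members had a p under 0.05 in limma, all higher (9.09%), beside 3.44% of probes. In the methods' t-test 3 members passed before adjustment and 0 after it, beside 1183 and 2 of the 23240 probes. Scn2a measured 8.09 and 7.84 against 7.62, 7.54, 7.71 and 7.65 in the 1-month controls, a difference of 0.33 ± 0.15 (adjusted p = 1, limma). Both transected rats were above every control. Cacnb1 measured 8.03 and 8.28 against 7.91, 7.80, 7.86 and 8.02, and its lower transected value was next to its highest control. Its difference was 0.26 ± 0.12, the other way from 3 days. Cacna1h differed by 0.19 ± 0.09. Scn3a, at 6.66 and 7.10, overlapped its controls, with a difference of 0.17 ± 0.20, and Cacna2d1, at 7.90 and 8.32 against 7.67 to 7.83, differed by 0.35 ± 0.21. On the lower side the smallest p belonged to Scn4b (-0.11 ± 0.12), Scn1a (-0.11 ± 0.12) and Cacna1i (-0.10 ± 0.13). Groups were apart for 8 members, 7 higher and 1 lower (24.2%), and for 13.5% of probes. Of the 35 genes, 24 had a difference above 0, with a median of 0.02. Microglial markers stood at list means of 7.69 and 7.83 in these rats and 7.13 to 7.34 in their controls, and their part here was not tested.

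**Figure D3:**
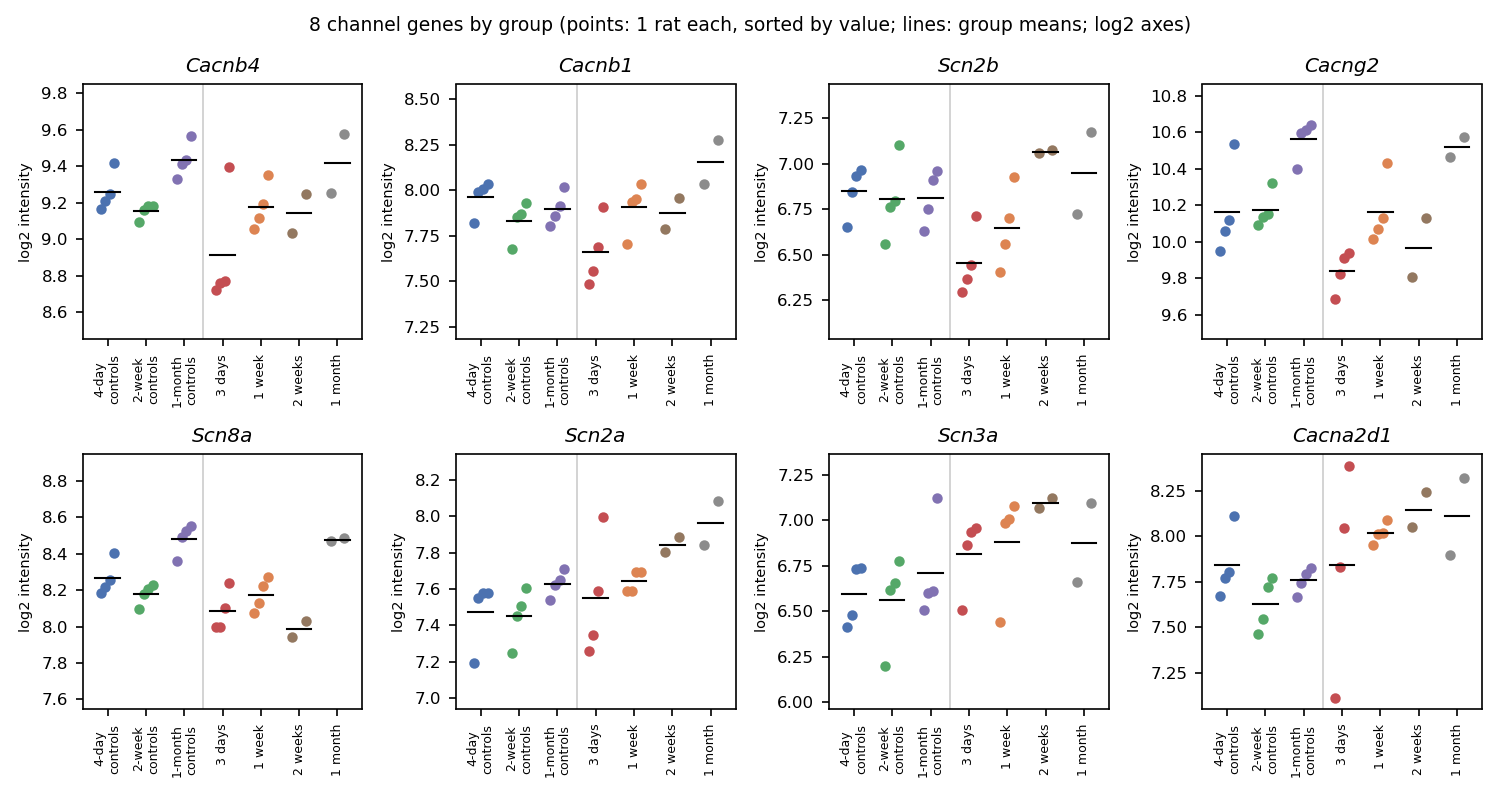
Log2 intensity (y axes) of 8 channel genes in the 7 groups (x axes, controls left of the grey line). Points are single rats in order of value, and lines are group means; Cacnb4 shows 1 of the 4 rats at 3 days (9.40) among the controls and the rest at 8.72 to 8.77, and Scn2a, Scn3a and Cacna2d1 at 2 weeks lie above their controls.

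Averaged over the 4 times with equal weight, 0 of 33 members passed in limma, beside 94 probes (0.404%). At an unadjusted p under 0.05 there were 3 higher and 2 lower (15.2%), beside 8.87% of probes. The methods' 2-factor analysis of variance, as run here, gave 6 members before adjustment and 0 after it, beside 2509 and 129 of the 23240 probes. It entered the 4-day controls both as controls of 3 days and as controls of 1 week. Those arrays were thus counted more than once, and its p-values lean small. Scn2a had an average difference of 0.24 ± 0.08 (adjusted p = 0.245, limma) and was above 0 at each of the 4 times. Scn3a had 0.30 ± 0.10 (adjusted p = 0.28), also above 0 at each time, and Cacna2d1 had 0.26 ± 0.11. For Scn2a the sign at 3 days rested on transected rat 3. The transected rats then measured 7.59, 7.35, 7.997 and 7.26, beside a mean of 7.47 in the 4-day controls. Below 0 were Scn8a (-0.12 ± 0.04), Cacna1i (-0.16 ± 0.06) and Cacng2 (-0.15 ± 0.07). The precision of the average was the best of all comparisons: the intervals of all 33 members lay within 1.5-fold, as did those of 97.2% of probes.

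Scn3a could be read from 3 probes. The second Scn3a probe had differences of 0.38 at 3 days, -0.01 at 1 week, 0.50 at 2 weeks and 0.59 at 1 month, and a probe shared by Scn3a and Scn9a had -0.15, -0.15, 0.42 and 0.35. All 3 probes were above 0 at 2 weeks and 1 month, and they disagreed in sign at 3 days and 1 week. No probe of the 3 passed the adjusted threshold at any time.

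Whether the early and late effects differed was tested directly, as the effect at 3 days minus that at each later time. No member passed in limma. For 3 days minus 1 week, 574 probes passed (2.47%), and 4 members had an unadjusted p under 0.05, all lower at 3 days (12.1%), beside 12.3% of probes. Here the methods' t-test gave 3 members before adjustment and 0 after it, beside 2329 and 0 of the 23240 probes. The 4 members in limma were Cacng8 (-0.29 ± 0.10, adjusted p = 0.186), Cacng2 (-0.32 ± 0.12), Cacnb1 (-0.25 ± 0.10) and Cacnb4 (-0.27 ± 0.12). Both effects are measured from the 4-day controls, so this is the difference between the transected groups. For 3 days minus 2 weeks, 0.0904% of probes passed, and 1 member above and 3 below 0 had an unadjusted p under 0.05 (12.1%), beside 6.98% of probes. The most distant was Scn2b (-0.65 ± 0.21, adjusted p = 0.437). For 3 days minus 1 month, again 0.0904% of probes passed, and 3 members were below 0 (9.09%), beside 7.22%. They were Cacnb1 (-0.56 ± 0.15, adjusted p = 0.229), Scn2b (-0.53 ± 0.21) and Scn3b (-0.47 ± 0.21).

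These tests changed too without rat 3 of the 3-day group. Cacnb4 then passed for 3 days minus 1 week, at -0.43 ± 0.09 (adjusted p = 0.0106, limma), where 3.51% of probes passed, and Cacnb1 passed for 3 days minus 1 month, at -0.64 ± 0.14 (adjusted p = 0.0449), where 0.538% did.

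The calls that limma made among the channel genes over all arrays were between uninjured groups. The 2-week and 1-month controls differed in 2366 probes (10.2%), and in 4 of 33 members (12.1%), 3 lower and 1 higher in the 2-week controls. Scn8a measured 8.23, 8.18, 8.10 and 8.21 in the 2-week controls and 8.36, 8.53, 8.55 and 8.49 in the 1-month controls, a difference of -0.31 ± 0.07 (adjusted p = 0.0146). Scn1a measured 9.68, 9.60, 9.57 and 9.62 against 9.92, 9.90, 10.02 and 10.00, a difference of -0.34 ± 0.09 (adjusted p = 0.0280). In both, every 2-week control lay below every 1-month control.

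Cacng2 was lower as well, at 10.32, 10.15, 10.13 and 10.09 against 10.64, 10.40, 10.61 and 10.60, by -0.39 ± 0.12 (adjusted p = 0.0380). Cacng6, a γ gene close to the filter, was higher, at 5.63, 5.31, 5.66 and 5.27 against 5.14, 5.25, 5.15 and 5.04, by 0.32 ± 0.09 (adjusted p = 0.0244). These 4 genes thus showed no overlap between the groups. At an unadjusted p under 0.05 there were 13 members, 3 higher and 10 lower (39.4%), beside 30.1% of probes. The methods' t-test called 4 members after adjustment and 11 before it, beside 1543 and 7301 of the 23240 probes. Groups were apart for 8 members (24.2%) and 23% of probes.

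The difference between these controls followed the level of the gene. Of the 18 brighter members, 15 were lower in the 2-week controls (median -0.20), and of all probes in that range 66.6% were lower. Of the 17 dimmer members 6 were lower, beside 23% of dim probes. Array medians were 78.6 to 80.7 in the 2-week controls and 73.6 to 75.6 in the 1-month controls. Of 8 astrocyte markers 5, of 9 oligodendrocyte markers 3 and of 12 neuronal markers 2 were also called lower in the 2-week controls, and the part of these in the channel values was not tested. The 2-week and 1-month transected rats were each compared with their own one of these control groups. The calls were lost by single arrays or by the scaling: no member passed without 2-week control 3 (2.64% of probes did) or after cyclic loess normalization (4.81%), 1 passed without 1-month control 3 (5.21%) or 4 (4.21%), and 2 passed without 2-week control 4 (7.16%). Without 2-week control 3 the differences were -0.37 for Cacng2, -0.33 for Scn1a, -0.28 for Scn8a and 0.26 for Cacng6, and after cyclic loess they were -0.29, -0.22, -0.15 and 0.20.

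The 4-day controls gave no member called against either of the other control groups. Against the 2-week controls no member and no probe passed in limma (0%), although 5.54% of probes and still no member passed without 4-day control 3. There were 3 members lower at an unadjusted p under 0.05 (9.09%), beside 14.3% of probes. With the methods' t-test 2 members passed before adjustment and 0 after it, beside 2062 and 0 of the 23240 probes. Cacng6 had the smallest p, at -0.29 ± 0.09 (adjusted p = 0.156), and was the 1 member with groups apart (3.03%), beside 5.16% of probes. Against the 1-month controls 0 members and 1 probe passed (0.0043%), while 9 members had an unadjusted p under 0.05, 1 higher and 8 lower (27.3%), beside 13.2% of probes. By the methods' t-test 6 members passed before adjustment and 0 after it, beside 2055 and 0 of the 23240 probes. Scn1a (-0.34 ± 0.09, adjusted p = 0.15), Cacna2d3 (-0.27 ± 0.08) and Scn4b (-0.28 ± 0.10) had groups apart, 9.09% of members beside 5.58% of probes. Cacng3 had the largest difference of the members, at -0.57 ± 0.21. Scn1a and Cacng2 passed as lower without 4-day control 4 (-0.42 and -0.52), where 2.44% of probes passed, and also with 4-day controls 1 and 2 alone (-0.48 and -0.56), where 0.577% of probes passed.

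**Figure D4:**
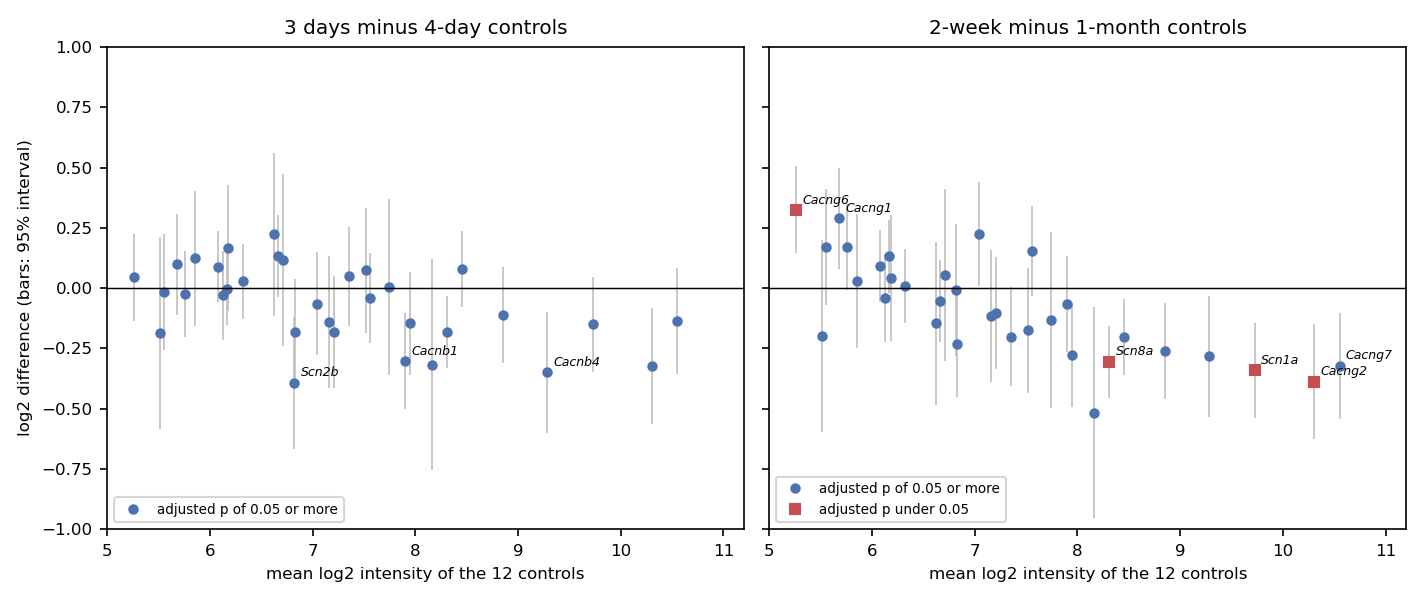
Log2 difference (y axes, limma estimate with 95% interval as bar) of the 33 tested channel genes against their mean level in the 12 controls (x axes), at 3 days p.i. (left) and between the 2-week and 1-month controls (right). Red squares are the 4 genes with an adjusted p under 0.05, names mark genes with an unadjusted p under 0.01, and the brighter genes lie mostly below 0 in both plots.

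Genes whose products anchor, modulate or pair with these channels were looked at in a list of 34 measured partners, of which 33 were above the filter. At 3 days 1 of the 33 was called, S100a10, and it was higher, a share of 3.03% beside 2.89% of all probes. S100a10 encodes p11, an annexin-binding protein that brings Nav1.8 to the cell surface in sensory neurons and is made by many other cell types. It measured 11.92, 11.89, 11.87 and 12.003 at 3 days and 11.48, 11.42, 11.27 and 11.13 in the 4-day controls, with no overlap. The difference was 0.60 ± 0.09 (adjusted p = 0.00096, limma), while Scn10a, the Nav1.8 gene, measured 4.82 to 5.08 in the same rats, around the filter. S100a10 was also called higher in the average over the 4 times (0.33 ± 0.06, adjusted p = 0.0104) and in 3 days minus 1 week (0.49 ± 0.09, adjusted p = 0.00686). The call in the average was lost without transected rat 3 of the 2-week group, and without transected rat 3 of the 3-day group 3 partners were called at 3 days in place of 1, beside 4.54% of probes. The microglial markers that were higher in these rats are given above, and their part in S100a10 was not tested.

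At an unadjusted p under 0.05 there were 1 higher and 6 lower of the 33 partners at 3 days, beside 14.2% of probes. The smallest p on the lower side belonged to the calmodulin kinase genes Camk2a (-0.29 ± 0.09, adjusted p = 0.0767) and Camk2b (-0.32 ± 0.11, adjusted p = 0.148). The other 4 were Fgf14 (-0.39), Ank3 (-0.14), Rims2 (-0.20) and Rims1 (-0.17). After S100a10, the smallest p on the higher side belonged to Nedd4l (0.26 ± 0.13, adjusted p = 0.363), a ubiquitin ligase that removes sodium channels from the membrane. At 1 week, 2 weeks and 1 month no partner was called, with 0, 3 and 3 at an unadjusted p under 0.05, beside 4.44%, 5.29% and 3.44% of probes. Between the 2-week and 1-month controls 6 partners of 33 were called, beside 10.2% of probes, all lower in the 2-week controls: the node proteins Cntnap1 (-0.56) and Cntn2 (-0.44), and Dpysl2 (-0.63), Stac2 (-0.50), Nedd4 (-0.31) and Cabp1 (-0.29).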

How the data were processed

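RNA of laser-dissected Fluoro-Gold labelled neurons was amplified and hybridized by the authors, 1 array for each of 24 rats. The deposited values are RMA intensity values on a linear scale, summarised and quantile normalized by the authors in GeneSpring GX, and run from 17 to 7979.81. Their log2 was used here, and precision is limited by how many arrays there are. Symbols came from the platform annotation (1 symbol for 15097 of 27342 probes, several for 323, none for 11922).

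A model of 7 group means was fitted (limma 3.58.1, R 4.3.3) over the 23240 probes above the lowest 15% by mean log2 (5.05), with Benjamini-Hochberg adjustment within each comparison. A call is an adjusted p under 0.05. The code was tested on simulated data. Groups came from the labels, which do not say more of the replicates than that each is a rat. By the study's methods, the 2-week transected group lost 1 rat whose array did not pass quality control and 1 to a freezing artefact, and the 1-month transected group lost rats to early death.

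The members, gene lists and tests were chosen with earlier results of these data known. Genes named were members called in any comparison, the 3 of smallest p in each direction, the brightest member of each family, Scn3a and Cacna2d1, and partners called or of smallest p at 3 days; others are named where values, chosen after they were seen, are set beside these. Alternatives were other filters, an offset, other scalings, moderation and weights, other control sets, probe averaging, the methods' tests, a block for the replicate number, and each array left out in turn. Plots were made with matplotlib 3.10.9.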

Additional observations from a re-analysis of the deposited data

Results flagged for a closer look

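In 175 groups of 4 rats (35 genes in 5 groups), 11 held a rat far from the rest of its group, where chance gives about 1 in 20. At 3 days p.i., Cacnb4 measured 9.399 in rat 3 and 8.719 to 8.768 in the others, and Cacna1h measured 6.281 in rat 1 and 6.199 to 6.203 in the others. At 1 week p.i., Scn3a was low in rat 2, at 6.441 where the others had 6.986 to 7.08. Among the 4-day controls, Scn4b was low in rat 3 (8.628; others 8.782 to 8.796), and rat 2 was low for Scn2a (7.194; others 7.549 to 7.579) and for Cacng5 (5.275; others 5.636 to 5.674). Among the 2-week controls, Cacna1i was high in rat 2 (6.951; others 6.651 to 6.67) and Scn10a, under the filter, in rat 4 (5.074; others 4.888 to 4.912). Among the 1-month controls, Scn3a was high in rat 3 (7.123; others 6.506 to 6.61), Cacna1d low in rat 4 (5.862; others 6.206 to 6.225) and Scn4a low in rat 1 (5.221; others 5.564 to 5.585). The causes were not tested.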

How the results depend on the processing

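No member was called at 1 week, 2 weeks or 1 month, or in the average over times, under any of the 39 alternatives that gave a value. Members called at 3 days were 0 to 3 when each array in turn was left out (3 without transected rat 3) and 3 with all controls pooled, and 0 under the other alternatives. Leaving out arrays gave 0 to 1 called for 3 days minus 1 week and for 3 days minus 1 month, 0 to 2 for 4-day minus 1-month controls and 0 to 6 for 2-week minus 1-month controls, where 4 had been called. Array weights gave 2, 2 and 9 called between 4-day and 2-week, 4-day and 1-month, and 2-week and 1-month controls (3.39%, 0.637% and 23.3% of probes), centring array medians gave 7 in the last (12.7%), and cyclic loess gave 0. Using 4-day controls 1 and 2 only, chosen after seeing the data, gave 2 between 4-day and 1-month controls. The median difference of the members with pooled controls was -0.02661 at 1 week and 0.1175 at 1 month, and at 1 month it ran from 0.0226 to 0.09359 with arrays left out. Partners called at 3 days were 1 to 3, and 0 to 1 in the average, with arrays left out (0 without transected rat 3 of the 2-week group). Members under the filter were 0 with the lowest 10%.

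Some signs turned. Cacna2d1 at 3 days turned to -0.01618 with medians centred, and ran from -0.1774 (without transected rat 3) to 0.248 (without transected rat 4) with arrays left out, being below 0 also without transected rat 2 and without 4-day controls 1, 2 and 3. At 1 month, pooled controls turned Scn4b to 0.06791, Scn1a to 0.1175 and Cacna1i to 0.03101. With arrays left out there, Scn4b ran from -0.2328 (without transected rat 1) to 0.005921 (without rat 2), and Scn3a from -0.05209 (without rat 2) to 0.3857 (without rat 1). Of 1391 recomputed differences of named genes, 1353 kept sign and side of the threshold, 22 lost a call and 5 gained one. The cause was not tested.

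The labels do not say whether replicate numbers pair the rats. Deviations of same-numbered arrays had a mean r of 0.0215 (55 pairs, lowest -0.186), beside -0.0063 for other numbers (189 pairs). Of 23 arrays, 8 correlated best with one of their own number. Correlations this weak cannot show whether there was pairing. With the replicate number as a block, 0 members were called at each time, in the average and between times, and 4 between 2-week and 1-month controls, as without it. Groups of 2 rats set the limit at 2 weeks and 1 month.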
